A study of Mus musculus with 2 samples.

Results

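The 36 genes described here belong to the glycolytic pathway and to the transcriptional response to low oxygen, and were followed across the immune cells of a mouse oral carcinoma. They were selected by symbol from a list drawn up with earlier results of these data known, by a rule that uses no measured value, and all 36 were found among the 32285 genes of the count matrices. They fall into 8 roles: 3 transporters (Slc2a1, Slc2a3, Slc16a3), 13 glycolytic enzymes (Hk1, Hk2, Gpi1, Pfkl, Pfkp, Aldoa, Tpi1, Gapdh, Pgk1, Pgam1, Eno1, Pkm, Ldha), 3 regulators of glycolytic flux (Pfkfb3, Pfkfb4, Pdk1), 5 genes of oxygen sensing (Hif1a, Epas1, Egln1, Egln3, Cited2), 2 mitophagy receptors (Bnip3, Bnip3l), 3 secreted factors (Vegfa, Adm, Mif), 3 enzymes of protein oxidation and collagen hydroxylation (Ero1l, P4ha1, P4ha2) and 4 regulators of growth and stress (Ndrg1, Ddit4, Ankrd37, Fnip2). MOC2 cells, a mouse oral cancer line, had been injected under the skin of female C57BL/6 mice aged 6 to 7 weeks. One arm then received daily intraperitoneal Momordicine-I, a triterpenoid of bitter melon, at 30 mg/kg, dissolved in DMSO and Captisol, and the other arm received that vehicle alone. Each arm held 10 mice, and tumours of 3 mice per arm were pooled, sorted for CD45, the surface marker of blood-derived cells, and read as 1 single-cell library. With 1 library per group there was no replicate and therefore no test, so every comparison below describes these libraries, and every interval covers counting error only.

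In oxygen-rich cells the prolyl hydroxylases encoded by Egln1 and Egln3 mark the HIF alpha subunits, HIF1A and EPAS1, for destruction. When oxygen is short the subunits persist, pair with ARNT, bind short DNA elements and raise the transcription of genes for glucose uptake, glycolysis, lactate export, mitophagy and blood vessel growth. Neutrophils are known to draw most of their energy from glycolysis, and the same enzymes are also raised by inflammatory signals, so a level of these messenger RNAs does not by itself report oxygen.

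The libraries held 3642 barcodes (vehicle) and 4693 barcodes (Momordicine-I), with 33998491 and 41804810 UMIs (unique molecular identifiers, each counting 1 captured transcript). Barcodes with at least 200 detected genes and at most 10% mitochondrial UMIs numbered 3364 and 4370, with medians of 5760 and 5002 UMIs, and 10 barcode sequences occurred in both libraries. Classes were gated on marker genes that are not members, and their names stand for those gates. Neutrophils were the largest class, at 1680 and 2316 cells. There were 93 and 195 monocytes and macrophages, 66 and 113 dendritic cells, 341 and 334 T cells, 52 and 90 NK cells, and 228 and 90 B cells, while 22.8% and 22.2% of barcodes met no gate. Neutrophil RNA was found in every class. Neutrophil markers made up 9.61% and 8.82% of the UMIs of neutrophils, between 0.0741% and 0.268% of those of the mononuclear phagocytes, T cells and B cells in either library, and 0.0458% and 0.0373% of those of NK cells. Levels are given as CPM, the gene's UMIs scaled to a common total of the class's summed UMIs. Because each transcript is tagged once at its 3′ end, they do not scale with transcript length.

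Windows of 250 bases before the transcription start (RefSeq, GRCm38.p6) could be matched for 32 of the 36 members, 31 by symbol and Ero1l through its synonym Ero1a. HIF dimers recognise a core of ACGTG or GCGTG, read on the other strand as CACGT or CACGC. At least 1 core, on either strand and with overlapping matches merged, was present in 33 of the 42 member windows (78.6%), covering 28 of the 32 members, against 38.6% of all 32851 windows. Member windows were also richer in G and C, with a median of 64% against 52.4%. Within the range of 57.2% to 69% GC, the core was in 17 of 20 member windows (85%) and in 58.2% of all 8184 windows. A match describes the letters and does not show a bound site. The windows below are shown because Ldha, Hk2 and Pdk1 differed widely among neutrophils, P4ha1 was among the genes that ranked those neutrophils, and Mif differed among them without the core. They lie at chr7:46845554-46845803 (Ldha, plus strand), chr10:59323046-59323295 (P4ha1, plus strand), chr6:82774455-82774704 (Hk2, minus strand), chr2:71872974-71873223 (Pdk1, plus strand) and chr10:75860278-75860527 (Mif, minus strand). None overlaps an annotated exon, all are written 5′ to 3′ on the gene's strand, and capitals mark the cores.
Ldha: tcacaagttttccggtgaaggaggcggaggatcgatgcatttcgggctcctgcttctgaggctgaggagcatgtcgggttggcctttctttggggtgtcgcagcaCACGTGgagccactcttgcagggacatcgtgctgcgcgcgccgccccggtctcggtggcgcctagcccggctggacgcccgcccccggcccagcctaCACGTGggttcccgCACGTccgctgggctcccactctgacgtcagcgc
P4ha1: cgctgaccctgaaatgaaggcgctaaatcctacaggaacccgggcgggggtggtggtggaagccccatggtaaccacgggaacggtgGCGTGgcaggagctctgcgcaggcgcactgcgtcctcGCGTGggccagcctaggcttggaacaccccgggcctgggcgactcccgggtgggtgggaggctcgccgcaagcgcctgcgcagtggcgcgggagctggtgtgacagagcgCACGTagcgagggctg
Hk2: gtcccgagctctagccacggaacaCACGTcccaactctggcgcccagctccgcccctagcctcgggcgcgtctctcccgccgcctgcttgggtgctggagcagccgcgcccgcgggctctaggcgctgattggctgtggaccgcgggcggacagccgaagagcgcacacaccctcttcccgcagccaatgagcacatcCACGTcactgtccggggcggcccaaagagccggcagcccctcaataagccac
Pdk1: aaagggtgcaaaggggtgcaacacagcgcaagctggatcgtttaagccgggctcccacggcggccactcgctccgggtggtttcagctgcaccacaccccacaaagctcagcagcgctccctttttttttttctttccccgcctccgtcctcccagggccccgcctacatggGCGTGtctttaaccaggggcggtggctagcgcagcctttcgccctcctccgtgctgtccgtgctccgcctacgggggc
Mif: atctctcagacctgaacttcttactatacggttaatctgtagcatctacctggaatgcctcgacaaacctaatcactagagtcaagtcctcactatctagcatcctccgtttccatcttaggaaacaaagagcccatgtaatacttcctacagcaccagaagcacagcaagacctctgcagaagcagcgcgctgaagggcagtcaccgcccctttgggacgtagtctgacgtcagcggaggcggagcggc
The Ldha and P4ha1 windows each held 3 separate cores, the Hk2 window 2 and the Pdk1 window 1. The Mif window held 0. RefSeq gives Ldha and Pdk1 another start each, whose windows, not printed, held 1 and 0 cores.

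This RNA made up a larger share of UMIs in neutrophils than in any other immune class. A share is not an amount per cell. Neutrophils had medians of 4856.5 and 4317 UMIs per cell, against 13437 and 13539 in monocytes and macrophages. The 36 genes together made up 1.48% of neutrophil UMIs in the vehicle library and 1.47% in the Momordicine-I library. The share was 0.891% and 0.947% in monocytes and macrophages, 0.658% and 0.650% in dendritic cells, 0.607% and 0.648% in T cells, 0.604% and 0.574% in NK cells, and 0.263% and 0.235% in B cells. The 3 members with the highest neutrophil level were Gapdh, the enzyme that makes the first NADH of glycolysis (2058 and 2168 CPM), Pkm, the pyruvate kinase (1157 and 1104 CPM), and Ldha, which turns pyruvate into lactate (877 and 899.9 CPM). Of the 6 immune classes compared, neutrophils had the highest level of 25 of the 35 testable members in both libraries, against 13.6% of all genes tested. For 22 members the counting intervals of the neutrophils and of the next class also did not overlap, against 7.67% of all genes.

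**Figure D1:**
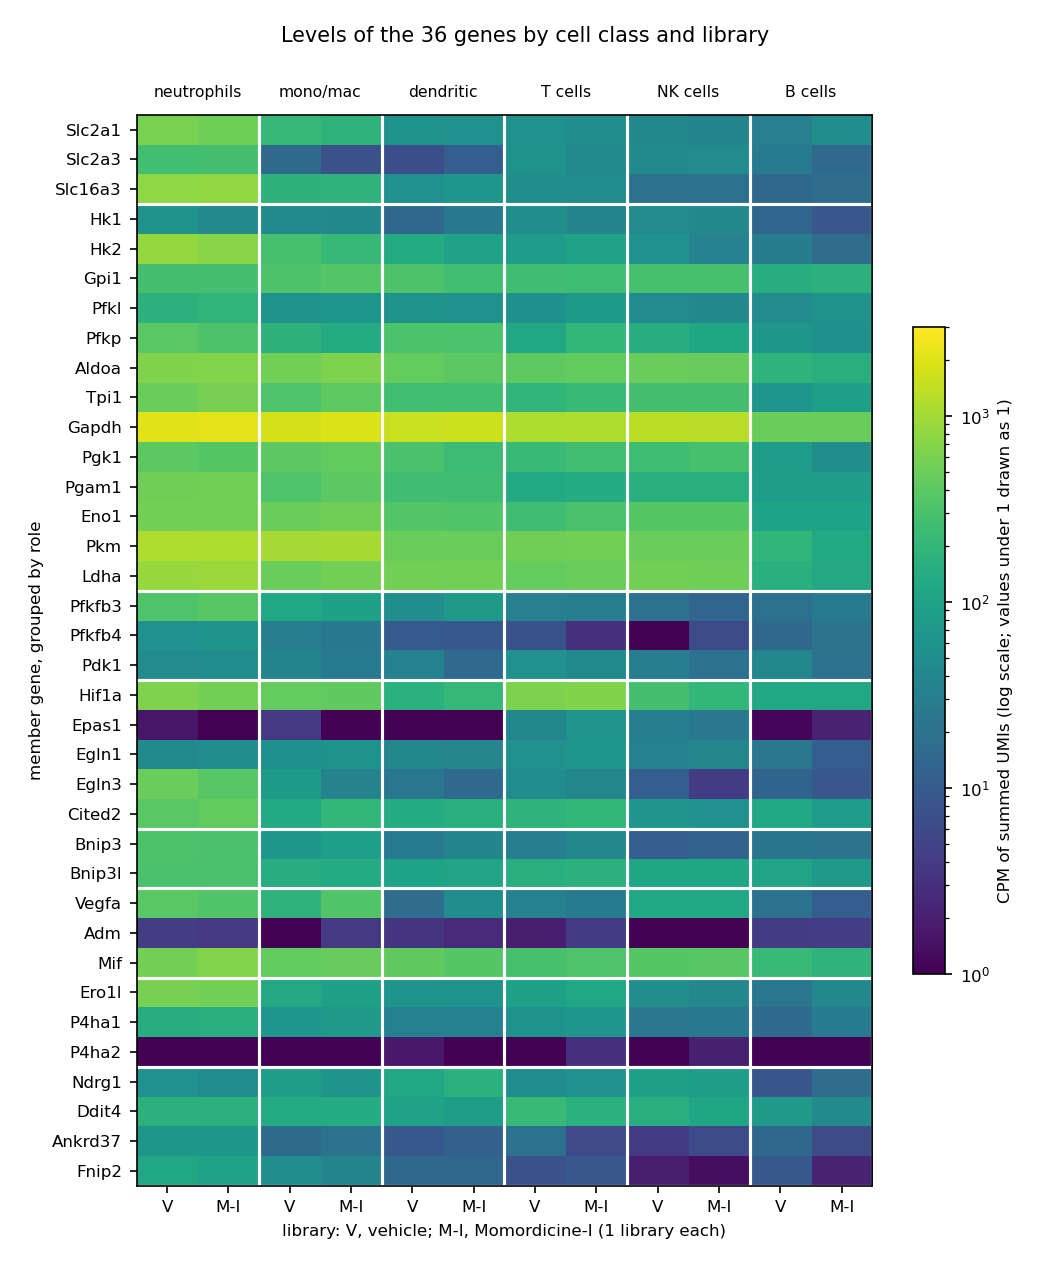
CPM of each of the 36 genes (rows, grouped by role) in 6 immune classes, with the vehicle (V) and Momordicine-I (M-I) library side by side; the colour scale is logarithmic and values under 1 CPM are drawn as 1. The neutrophil columns are the brightest for most rows, B cells are the darkest for most, and Adm and P4ha2 stay near 0 throughout.

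Set against all other gated immune cells of the same library, 24 of the 35 members with enough UMIs in both libraries were at least 1.5-fold higher in neutrophils in both, and 1, Epas1, was at least 1.5-fold lower in both. Across all 11753 genes tested the same rule gave 15.2% higher and 56.1% lower. The median log2 difference over the 35 members was 1.23 (vehicle) and 1.00 (Momordicine-I), and over all genes tested it was -1.15 and -0.92. The make-up of the other immune cells differed between the libraries. B cells gave 1751094 and 460120 UMIs, and monocytes and macrophages 1314444 and 2895152 UMIs. The part of this make-up in the differences between the libraries was not tested. The members past the fold comprised all 3 transporters, 9 of 13 glycolytic enzymes (not Hk1, Gpi1, Aldoa or Pgk1), 2 of 3 flux regulators (not Pdk1), 2 of 5 oxygen-sensing genes (Egln3 and Cited2), both mitophagy receptors, 2 of 3 secreted factors (not Adm), both measurable protein-modifying enzymes, and 2 of 4 growth and stress regulators (Ankrd37 and Fnip2). Against monocytes and macrophages alone some gaps were small. Gapdh stood there at 1774 and 1888 CPM against 2058 and 2168 CPM in neutrophils. Pkm stood at 1009 and 1046 CPM against 1157 and 1104 CPM, and Eno1 at 501 and 528 CPM against 559 and 571 CPM. Other gaps stayed wide, such as that of Slc16a3 at 178 and 184 CPM against 771 and 818 CPM. P4ha2 could not be judged, with 0 UMIs in vehicle neutrophils. Free neutrophil RNA in the other classes adds to their levels and so makes these differences smaller.

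**Figure D2:**
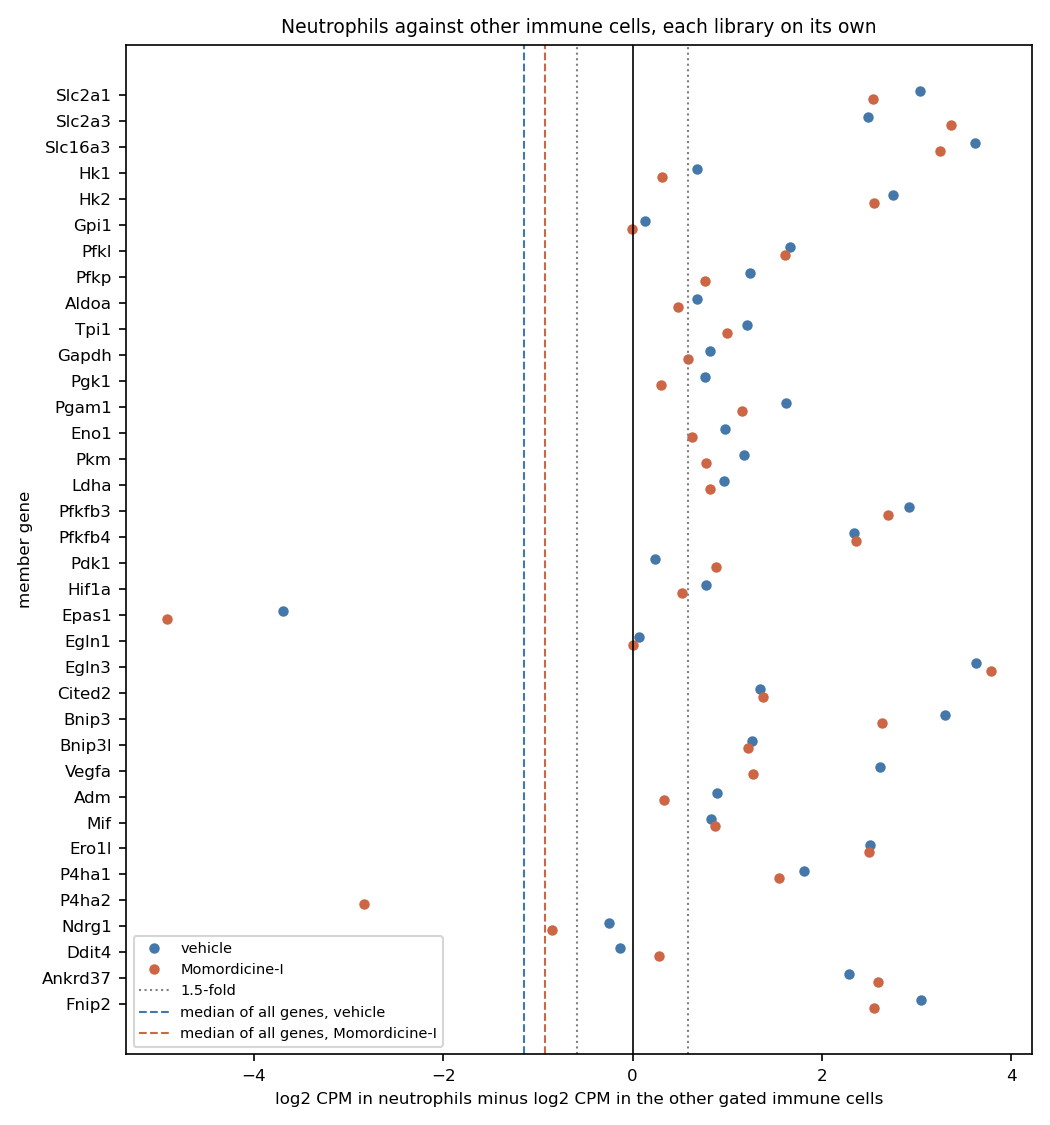
Log2 CPM in neutrophils minus log2 CPM in the other gated immune cells for each member, computed within each library (P4ha2 has a point in the Momordicine-I library only). Most points lie right of the dotted 1.5-fold line, whereas the dashed medians of all genes lie at -1.15 and -0.92.

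Among the transporters, Slc16a3 (MCT4), which exports lactate, stood at 771 CPM in neutrophils and 63.1 CPM in the other immune cells of the vehicle library, a 12.2-fold difference (95% interval 11.3 to 13.3). In the Momordicine-I library it stood at 818 and 86.0 CPM (9.51-fold, 8.87 to 10.2). The glucose transporter Slc2a3 (GLUT3) differed 5.62-fold (263 and 46.8 CPM, interval 5.08 to 6.23) and 10.3-fold (284 and 27.6 CPM, interval 9.08 to 11.6). Slc2a1 (GLUT1), the other main glucose transporter, differed 8.17-fold (597 and 73.1 CPM) and 5.81-fold (519 and 89.4 CPM). All 3 were thus several-fold higher in neutrophils than in the other immune cells summed, whichever library was read. This did not hold against each single class. Basophils (44 and 41 cells) held 120 and 31 Slc2a3 UMIs among 351197 and 257311 UMIs. That level, from few cells, was above the one of neutrophils in the vehicle library and below it in the Momordicine-I library.

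The gap was uneven along the pathway. Hk2, the inducible hexokinase that traps glucose in the cell, was 6.74-fold higher (844 and 125 CPM) and 5.87-fold higher (713 and 121 CPM) in neutrophils. Gapdh, in the middle of the pathway, differed by 1.76-fold (2058 and 1170 CPM) and 1.502-fold (2168 and 1443 CPM). Pfkfb3 makes fructose-2,6-bisphosphate, the activator of phosphofructokinase, and was 7.58-fold (334 and 44.0 CPM, interval 6.85 to 8.42) and 6.50-fold (378 and 58.2 CPM, interval 5.96 to 7.09) higher. Of these genes, the transporters, Hk2 and Pfkfb3 had larger ratios than Gapdh, whereas Hk1 had smaller ones (1.60-fold and 1.24-fold). Among later steps, Pgam1, a phosphoglycerate mutase (3.07-fold and 2.23-fold), and Pkm (2.26-fold and 1.72-fold) lay in between. Pgk1, the step after Gapdh, had smaller ratios than Gapdh in both libraries (1.70-fold and 1.23-fold).

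Egln3, the oxygen-sensing hydroxylase that is itself a HIF target, showed the largest ratio of all members in both libraries: 476 CPM against 38.4 CPM (12.4-fold, 11.1 to 13.8) and 377 CPM against 27.3 CPM (13.8-fold, 12.2 to 15.6). In the vehicle library its interval overlapped that of Slc16a3 (12.2-fold, 11.3 to 13.3). Bnip3, which tags mitochondria for removal, was 9.83-fold (316 and 32.1 CPM, interval 8.74 to 11.1) and 6.22-fold (301 and 48.5 CPM, interval 5.66 to 6.85) higher. Fnip2, a partner of folliculin in nutrient signalling, was 8.28-fold (122 and 14.8 CPM, interval 6.95 to 9.94) and 5.86-fold (99.7 and 17.0 CPM, interval 4.99 to 6.92) higher. The transcription factor subunits differed from these genes. Hif1a was nearly as high in T cells (626 and 665 CPM) as in neutrophils (645 and 559 CPM), and its order between them changed with the library. Type 2 innate lymphoid cells held 173 and 97 Hif1a UMIs among 214052 and 160529 UMIs. That level, from few cells, was above the one of neutrophils in both libraries. Epas1, which encodes HIF2A, was at 1.64 and 0.782 CPM in neutrophils against 21.1 and 23.6 CPM in the other immune cells. Its highest levels were in the small class of type 2 innate lymphoid cells (28 and 20 cells), at 173 and 187 CPM. That gate also held T-cell markers at 0.152% and 0.0685% of UMIs and NK-cell markers at 0.498% and 0.00187%, against 0.371% and 0.359% for its own markers. Next came T cells at 39.9 and 65.8 CPM. The T-cell gate held markers of the innate lymphoid cells at 0.0713% and 0.0806% of UMIs, and the part of these mixtures in the Epas1 values was not tested.

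Some paralog pairs were used in different proportions by the classes. Hk1, the constitutive hexokinase, made up 6.52% and 5.72% of the Hk1 and Hk2 UMIs of neutrophils, 39.0% and 26.5% of those of T cells, and 45.3% and 54.8% of those of NK cells. Slc2a1 made up 69.4% and 64.7% of the Slc2a1 and Slc2a3 UMIs of neutrophils, 92.8% and 96.2% of those of monocytes and macrophages, and 49.2% and 52.6% of those of T cells. Phagocytes of the monocyte lineage thus held almost only Slc2a1, whereas T cells held both genes at like levels. Slc2a3 in monocytes and macrophages stood at 16.0 and 7.25 CPM. If all their neutrophil-marker UMIs came with average neutrophil RNA, that RNA would carry 6.47 and 8.63 CPM of Slc2a3. This figure is an upper bound, and the Momordicine-I level lay below it. Egln1, the main hydroxylase in most tissues, made up 8.70% and 11.9% of the Egln1 and Egln3 UMIs in neutrophils, but 40.9% and 62.8% in monocytes and macrophages and 53.8% and 63.2% in T cells. In monocytes and macrophages Egln3 had 104 and 105 UMIs, and a single cell gave a large part of the vehicle UMIs, as described below. Neutrophil RNA could carry up to 11.7 and 11.5 of its 79.1 and 36.3 CPM there. Bnip3 and Bnip3l were at equal levels in neutrophils (Bnip3 share 51.1% and 49.9%), while Bnip3l dominated in T cells (Bnip3 share 17.5% and 19.3%). Pfkp, the platelet-type phosphofructokinase, exceeded the liver-type Pfkl by more in dendritic cells, where Pfkl held 16.5% and 15.5% of the pair, than in neutrophils, where it held 30.3% and 37.1%. The few basophils had 7 and 9 UMIs of Pfkl beside 125 and 91 of Pfkp. Pfkfb3 held 85.1% and 86.0% of its pair with Pfkfb4 in neutrophils, Hif1a 99.7% and 99.9% of its pair with Epas1, and P4ha1 100% and 99.8% of its pair with P4ha2.

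A few members peaked outside the neutrophils. Ddit4, an inhibitor of mTORC1 induced by stress, reached 1241 and 688 CPM in basophils (44 and 41 cells), against 174 and 173 CPM in neutrophils. Ndrg1, a stress-responsive gene, was highest of the 6 main classes in dendritic cells at 118 and 166 CPM, and stood at 57.1 and 49.3 CPM in neutrophils. Adm, the vasodilator adrenomedullin, did not exceed 4.35 CPM in any of the 6 main classes. Barcodes gated on carcinoma markers (62 and 190), which the CD45 sort was meant to remove, had the highest Gapdh (3248 and 4334 CPM) and Mif (1078 and 1406 CPM) but little Slc16a3 (6.17 and 18.5 CPM). Carcinoma markers were 0.00588% and 0.00816% of neutrophil UMIs.

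Within neutrophils many members, though not all, rose together along a ranking of the cells. Cells of each library were ranked by the summed CPM of 13 members outside the core pathway (Bnip3, Bnip3l, Egln1, Egln3, Ero1l, P4ha1, Vegfa, Ankrd37, Ndrg1, Fnip2, Ddit4, Cited2 and Adm) and cut into 4 groups of 420 (vehicle) or 579 (Momordicine-I) cells, and the 13 glycolytic enzymes, which the ranking did not use, were then read. This ranking was chosen after the data had been seen. All 13 enzymes were more than 1.5-fold higher in the highest than in the lowest group in both libraries, where 8.26% of 7056 genes not used to rank were past that fold upward and 10.6% downward. Their median log2 difference was 1.67 and 1.82, against -0.11 and -0.05 over all genes. For 12 of the 13 the level was higher at each step from group 1 to group 4 in both libraries, Gpi1 being the exception.

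Hk2 went from 291 CPM in the lowest group to 1808 CPM in the highest in the vehicle library (6.21-fold, 5.71 to 6.76) and from 168 to 1553 CPM in the Momordicine-I library (9.24-fold, 8.35 to 10.3). Tpi1, which interconverts the triose phosphates, went from 162 to 999 CPM and from 213 to 1081 CPM. Ldha went from 355 to 1677 CPM and from 341 to 1693 CPM. These 3 had the largest ratios among the enzymes in both libraries. Gapdh was in between, going from 1122 to 3450 CPM and from 1112 to 3593 CPM. Pkm had the smallest ratio, at 801 and 1618 CPM (2.02-fold) and at 770 and 1546 CPM (2.01-fold).

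**Figure D3:**
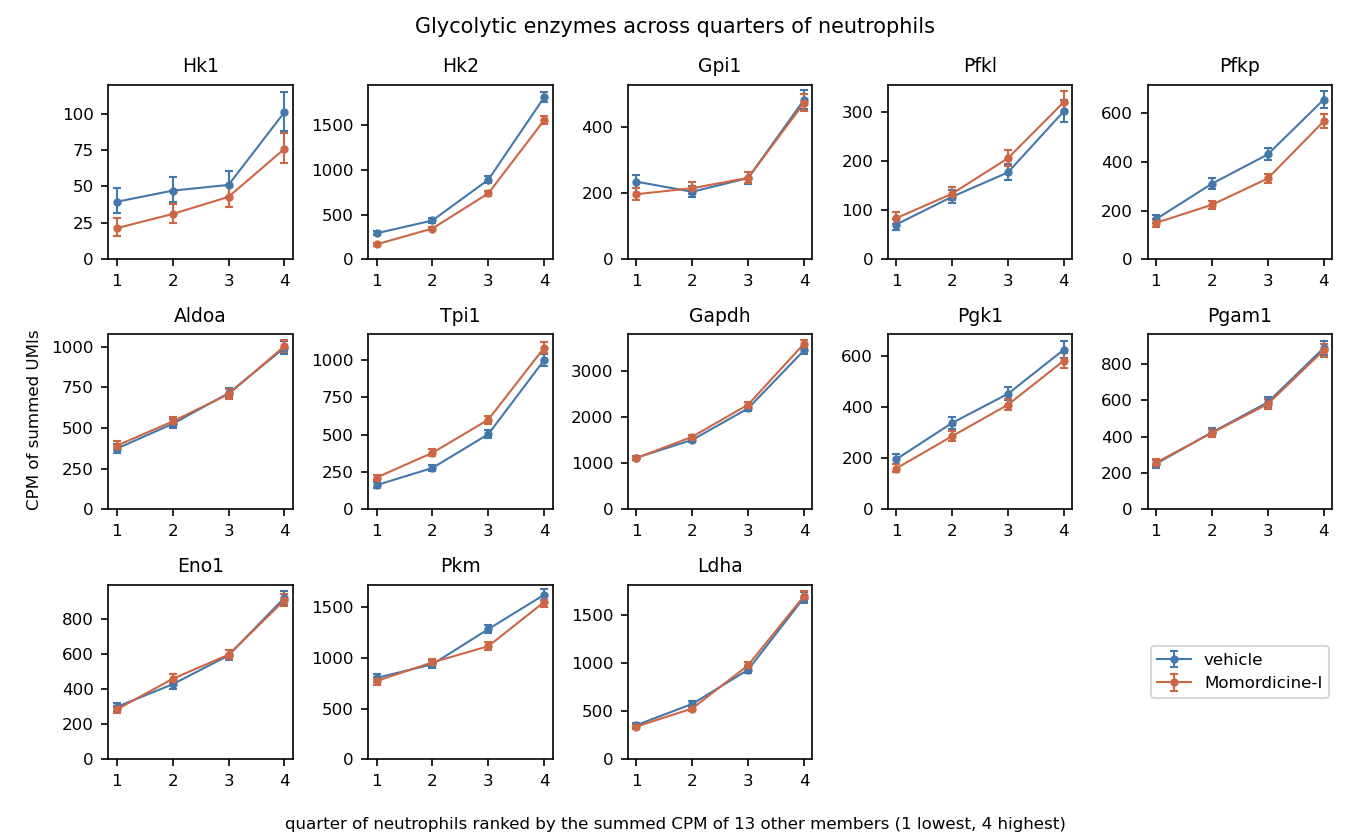
CPM with exact Poisson 95% intervals of the 13 glycolytic enzymes in 4 groups of neutrophils ordered by the summed CPM of 13 other members, for the vehicle and the Momordicine-I library. Levels climb from group 1 to group 4 for every enzyme in both libraries except for a dip of Gpi1 in the vehicle library, and the lines of the libraries run close together.

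Among members outside the enzymes that were not used to rank, Pdk1, the kinase that keeps pyruvate out of the mitochondria, went from 9.64 to 94.2 CPM (9.77-fold, 6.23 to 16.1) and from 15.6 to 87.9 CPM (5.62-fold, 3.98 to 8.13). Mif, a secreted cytokine, went from 227 to 991 CPM and from 336 to 1115 CPM. Not every member followed. The lactate exporter Slc16a3 was slightly lower in the highest group (802 and 702 CPM, and 861 and 759 CPM), and Pfkfb4 was lower as well (68.0 and 54.5 CPM, and 78.6 and 44.7 CPM). Hif1a itself showed a smaller difference than the enzymes, at 488 and 765 CPM (1.57-fold) and at 496 and 617 CPM (1.24-fold). The transcripts of the lactate exporter and of Ldha thus went different ways in this ranking. The promoter windows of Ldha, Hk2 and Pdk1 printed above held the HIF core, and that of Mif, which went the same way, did not. Windows of Tpi1 and Gpi1, also higher in the highest group, held 0 cores. Those of Slc16a3 and Pfkfb4, lower in that group, held 2 and 1. A relation between the core and the direction in this ranking was not tested. Median depth was alike in the end groups (4650 and 4332 UMIs, and 4057 and 4207 UMIs). Retnlg, a gene of mature blood neutrophils, ran the other way, from 3484 to 1292 CPM and from 3343 to 2048 CPM. Neutrophil-marker share had medians of 6.14% and 4.73%, and of 7.40% and 5.54%, and its part in the ranking was not tested. Of a further 44 genes of the same pathways, listed as a companion set, 27 could be read here, 12 were past 1.5-fold higher in both libraries and 1, the mitochondrial pyruvate carrier gene Mpc1, was lower. The 12 included Hilpda, a HIF target that blocks lipid breakdown, at 539 and 2569 CPM and at 561 and 2546 CPM.

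Cell by cell, after thinning neutrophils to 2000 UMIs each (1447 and 2000 cells), the pair of Ldha and Ero1l, an oxidase of protein folding, had Pearson's r of 0.41 and 0.42, and no other of the 465 pairs of 31 members was above 0.40 in both libraries. The median over these pairs was 0.12 in both libraries. Pairs of other genes were not computed, and the values describe sparse counts of cells that share a library.

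Neutrophil states, gated on genes that are not members, differed in some of these genes. No state was met by 40.5% (vehicle) and 50.6% (Momordicine-I) of neutrophils, and several states were met by 20% and 14.2%. The comparisons of states leave these cells out. Cells with inflammatory markers (Cxcl3, Ccl3, Ccl4, Ptgs2, Tnf; 417 and 415 cells) were compared with cells holding markers of mature blood neutrophils (Retnlg, Ly6g, Mmp8, Padi4, Cd177; 72 and 155 cells). In both libraries 10 of 33 members were past 1.5-fold higher in the inflammatory cells, against 14.5% of all genes, and 1, Slc2a3, was past 1.5-fold lower, against 6.44%. The 10 were Hk2, Pfkp, Tpi1, Egln1, Cited2, Mif, Ero1l, P4ha1, Ankrd37 and Fnip2. The median log2 difference was 0.44 and 0.58, against 0.27 and 0.14 over all genes.

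Fnip2 showed the widest gap, at 26.5 CPM in mature and 169.6 CPM in inflammatory cells of the vehicle library (6.40-fold, 3.77 to 11.8) and at 37.9 and 133 CPM in the Momordicine-I library (3.50-fold, 2.44 to 5.18). Hk2 stood at 437 and 1005 CPM (2.30-fold, 2.01 to 2.64) and at 403 and 828 CPM (2.05-fold, 1.83 to 2.31). Ero1l stood at 342 and 687 CPM and at 343 and 827 CPM. Slc2a3 ran against them: 475 CPM in mature and 211 CPM in inflammatory cells of the vehicle library (0.444-fold, 0.381 to 0.518), and 592 and 260.4 CPM in the Momordicine-I library (0.440-fold, 0.390 to 0.495). Slc2a1 did not share this direction, at 505 and 647 CPM and at 450.1 and 611 CPM. The highest GLUT3 transcript level was thus in the mature blood type, and GLUT1 was higher in the inflammatory type.

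Against the same mature cells, those with interferon-response markers (118 and 99 cells) had 4 of 33 members past 1.5-fold higher in both libraries (Hk2, Cited2, Mif and Fnip2), against 10.1% of all genes, and 1 lower (Slc2a3), against 4.76%. Hk2 reached 808 and 839 CPM there. Cells with Siglecf, a marker described on long-lived tumour neutrophils (57 and 146 cells), had 3 of 33 higher than the mature cells (Mif, Ankrd37 and Fnip2), against 25.2%, and 3 lower (Slc2a3, Slc16a3 and Ddit4), against 5.76%. The lactate exporter Slc16a3 stood at 957 and 963 CPM in mature and 506 and 499.8 CPM in Siglecf cells. Slc2a3 stood at 98.8 and 171 CPM in Siglecf cells, its lowest level of the 4 states in both libraries.

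The Siglecf cells had lower levels of many members than the inflammatory cells. None of 34 members was past 1.5-fold higher in both libraries, although 23.5% of all genes were, and 10 were past 1.5-fold lower, against 4.28% of all genes. The 10 were Slc2a1, Slc2a3, Hk2, Pfkp, Ldha, Pfkfb3, Bnip3, Ero1l, Ddit4 and Fnip2. Ero1l stood at 346 and 329 CPM in the Siglecf cells, Ldha at 497 and 663 CPM against 1009.6 and 1181 CPM in the inflammatory cells, and Pfkfb3 at 238 and 160 CPM against 388 and 479.8 CPM. Pfkp stood at 201 and 154 CPM against 441 and 442 CPM. The median log2 difference of the members was -0.51 and -0.47, while that of all genes was 0.28 and 0.50. Mif was lower by less, at 540.1 and 793 CPM in the Siglecf and 699 and 802 CPM in the inflammatory cells. The member above the inflammatory cells in both libraries was Pfkfb4, at 61.7 CPM against 49.9 CPM (ratio 1.24, 0.730 to 2.00) and at 66.4 CPM against 36.3 CPM (ratio 1.83, 1.24 to 2.67). Median UMIs were 5828 and 5116 in mature, 4970 and 4806 in inflammatory and 5082 and 4328 in Siglecf cells, and the state gates count detected markers, which depends on depth.

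**Figure D4:**
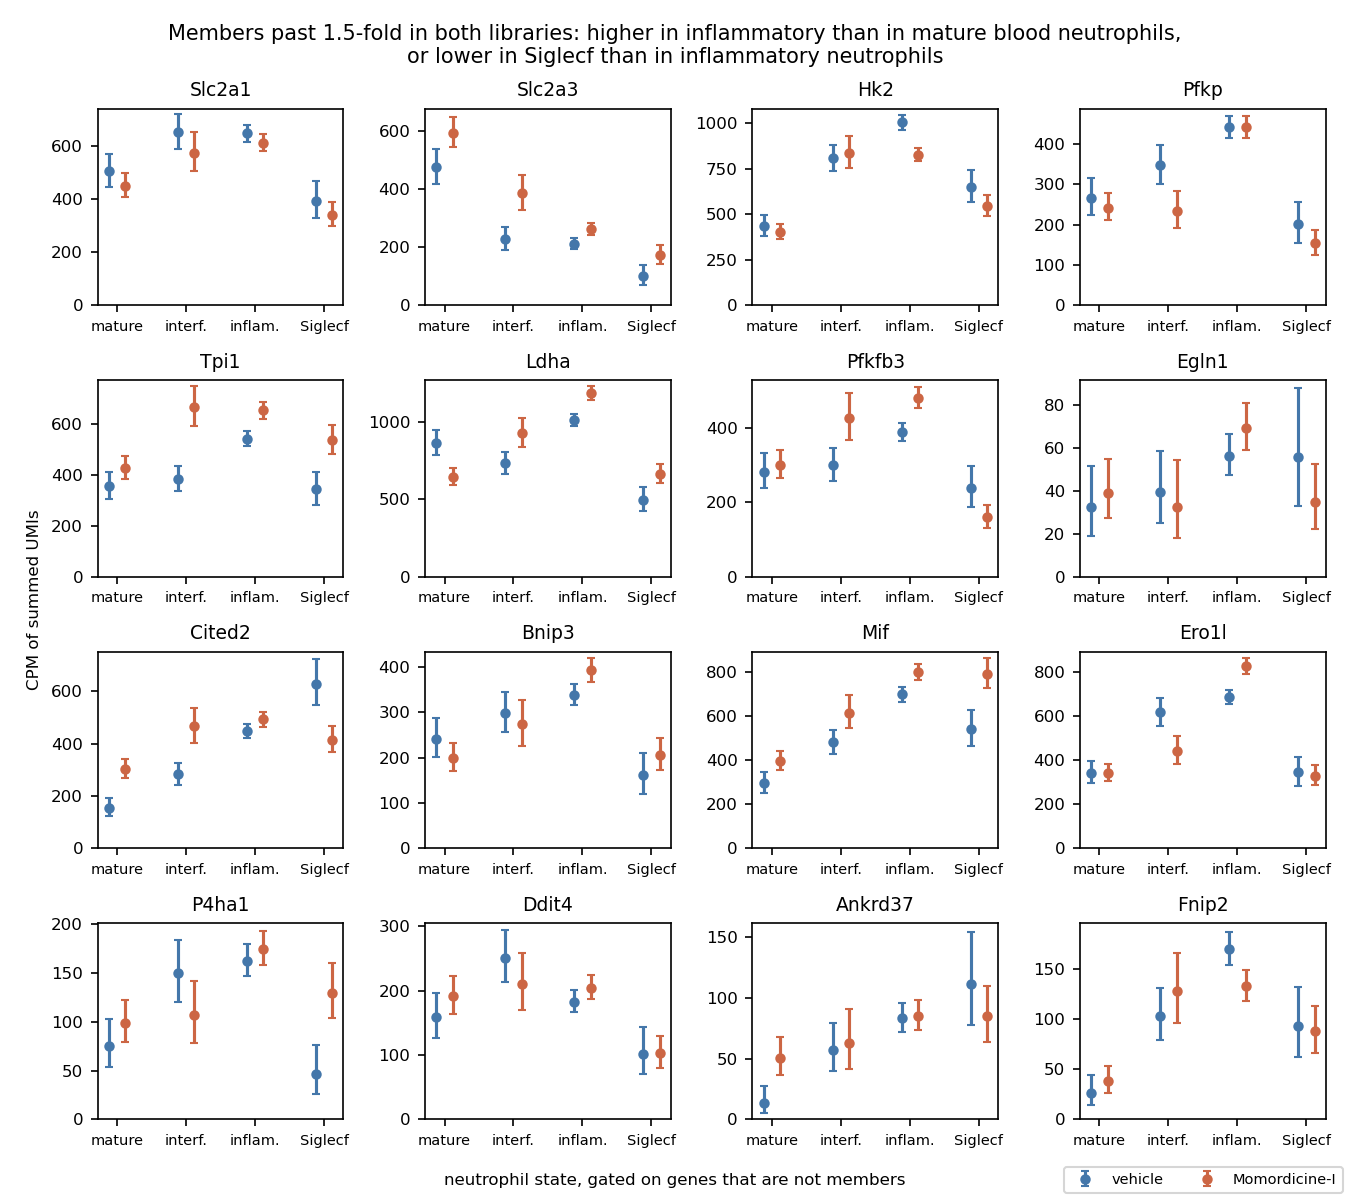
CPM with exact Poisson 95% intervals in mature, interferon, inflammatory and Siglecf neutrophils for the 16 members past 1.5-fold in both libraries between inflammatory and mature cells (upward) or between Siglecf and inflammatory cells (downward). This choice of members favours panels that peak in the inflammatory cells, as most do. Slc2a3 is highest in the mature cells and Ddit4 in the interferon cells of both libraries. Cited2 and Ankrd37 are highest in the Siglecf cells of the vehicle library.

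The series set out to compare Momordicine-I with vehicle in these immune cells. In neutrophils the libraries lay close together for these genes: of 35 measured, 0 were past 1.5-fold higher, against 12% of all genes, and 1 was past 1.5-fold lower, against 4.63%. That 1 was Epas1, with 16 and 9 UMIs in the whole class (1.64 and 0.782 CPM, ratio 0.478, 0.186 to 1.15). The shares of all genes were not matched to the members in level, and with few UMIs counting error alone can pass 1.5-fold. Gapdh, in contrast, had 20100 and 24935 UMIs in neutrophils and Hk2 had 8246 and 8204. The part of level in the gap between the members and all genes was not tested. The median log2 ratio of the members was -0.0017 and that of all genes was 0.14, so relative to the typical gene the members were slightly lower. Apart from Epas1, the lowest ratios were those of Hk1 (58.9 and 43.3 CPM, ratio 0.736), Egln3 (476 and 377 CPM, ratio 0.791) and Fnip2 (122 and 99.7 CPM, ratio 0.815), and the highest was that of Tpi1 (479.9 and 578 CPM, ratio 1.20).

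**Figure D5:**
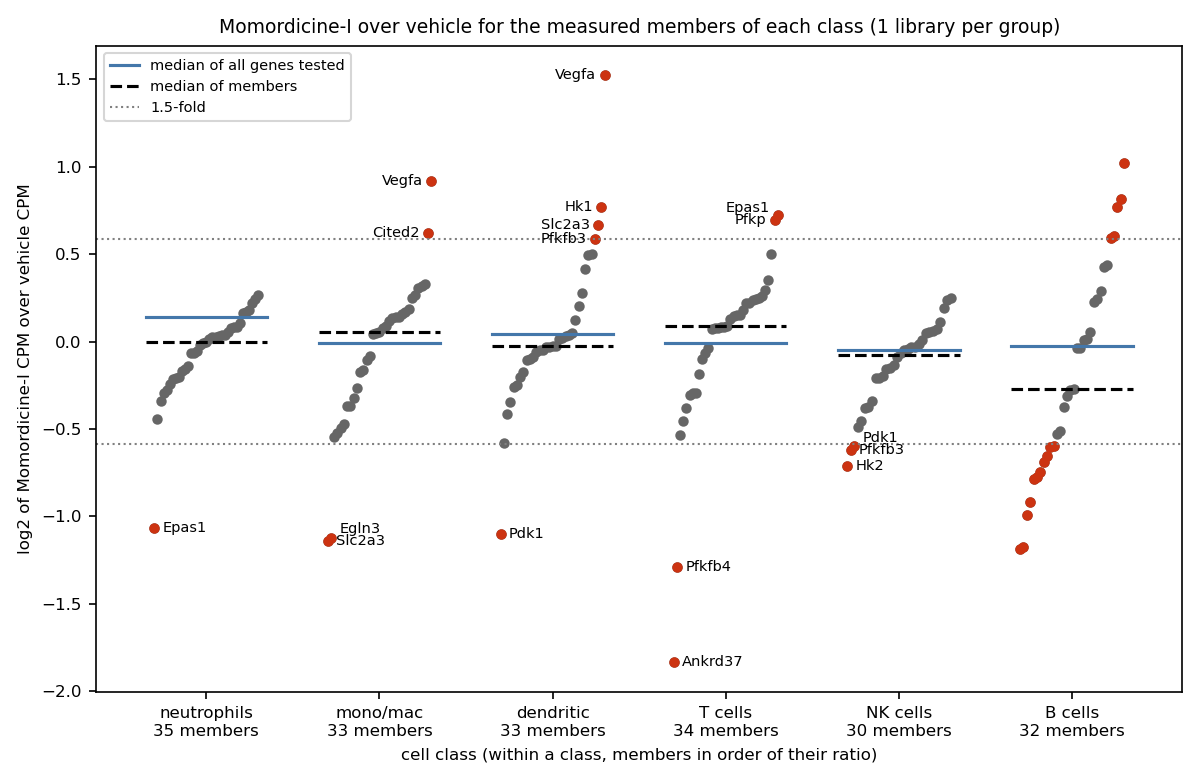
Log2 of Momordicine-I CPM over vehicle CPM for the measured members of 6 classes, in order of the ratio within a class; red points are past 1.5-fold, dashed lines are medians of the members and blue lines medians of all genes tested. Neutrophil members lie within a narrow band around 0 apart from Epas1, and 16 of the 32 B-cell members are past 1.5-fold.

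In monocytes and macrophages 2 of 33 members were past 1.5-fold higher and 2 past 1.5-fold lower, against 10.5% of all genes in each direction, so the counts did not stand above the background. Vegfa, the angiogenic growth factor, stood at 182 and 343 CPM (239 vehicle and 994 Momordicine-I UMIs, ratio 1.89, 1.64 to 2.18). Cited2, which competes with HIF for its coactivator, stood at 132 and 203 CPM (ratio 1.54, 1.30 to 1.84). Egln3 was lower, at 79.1 and 36.3 CPM (ratio 0.458, 0.346 to 0.607), with 31.7% of the vehicle UMIs coming from 1 cell. With each cell's own CPM averaged, the log2 ratio of Egln3 was -0.37 and that of Cited2 was 0.30, both within the fold. Slc2a3, at 21 UMIs in each library, had a ratio of 0.454 (0.236 to 0.874). Its level of 16.0 CPM in the vehicle library was above the 6.47 CPM that neutrophil RNA could carry. In the Momordicine-I library its 7.25 CPM was below the 8.63 CPM so reckoned. A single cell contributed 33.3% of the vehicle total. Neutrophil RNA could carry 9.39 and 10.4 CPM of Vegfa, a small part of its level. The make-up of the gate differed between the libraries: the macrophage gene C1qa stood at 603 and 322 CPM, the monocyte gene Ly6c2 at 643.6 and 481 CPM, and the shared gene Csf1r at 412 and 379 CPM. The part of this make-up in the ratios was not tested.

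In dendritic cells 4 of 33 members were past 1.5-fold higher, against 10.1%, and 1 past 1.5-fold lower, against 7.38%. Vegfa was higher here too, at 17.6 and 50.7 CPM (31 and 117 UMIs, ratio 2.88, 1.92 to 4.43), where a single cell held 19.4% and 15.4% of the UMIs. Markers of monocytes and macrophages were 0.0358% and 0.0565% of dendritic UMIs, against 0.719% and 0.569% in their own class, and their part in the Vegfa value was not tested. Hk1 stood at 14.8 and 25.1 CPM (ratio 1.70, 1.05 to 2.82) and Pfkfb3 at 51.1 and 76.7 CPM (ratio 1.501, 1.16 to 1.96). Slc2a3 had 12 and 25 UMIs (ratio 1.59, 0.770 to 3.47). Pdk1 was lower, at 33.5 and 15.6 CPM (ratio 0.466, 0.299 to 0.717).

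In T cells 2 of 34 members were past 1.5-fold higher, against 9.39%, and 2 past 1.5-fold lower, against 9.29%. Pfkp stood at 123 and 198 CPM (ratio 1.62, 1.41 to 1.85), the best counted of the 4. Epas1 stood at 39.9 and 65.8 CPM (ratio 1.65, 1.30 to 2.10), but after thinning to 2000 UMIs per cell its log2 ratio was -0.075. Ankrd37, a small HIF target, had 63 and 15 UMIs (20.6 and 5.77 CPM, ratio 0.280, 0.148 to 0.498), and a single cell held 22.2% of the vehicle UMIs. Pfkfb4 had 23 and 8 UMIs (ratio 0.410, 0.158 to 0.949). The make-up of the T-cell gate differed between the libraries. NK-cell markers were 0.0633% and 0.0207% of its UMIs, markers of innate lymphoid cells 0.0713% and 0.0806%, and Ly6c2 stood at 281 and 160 CPM. The part of this make-up in the T-cell ratios was not tested.

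In NK cells 0 of 30 members were past 1.5-fold higher, against 8.52%, and 3 past 1.5-fold lower, against 9.39%. These were Hk2 (57.0 and 34.9 CPM, ratio 0.612, 0.413 to 0.905), Pfkfb3 (20.6 and 13.4 CPM, ratio 0.650, 0.334 to 1.26) and Pdk1 (30.5 and 20.1 CPM, ratio 0.660, 0.386 to 1.13), and only the interval of Hk2 left out 1. In B cells 5 of 32 members were past 1.5-fold higher, against 12.5%, and 11 past 1.5-fold lower, against 18%. The median log2 ratio was -0.27, against -0.03 over all genes. The 90 B cells of the Momordicine-I library held 460120 UMIs against 1751094 in the vehicle library, and the intervals of 4 members left out 1. These were Pgk1 (83.9 and 52.2 CPM, ratio 0.621, 0.386 to 0.961), Pkm (192 and 135 CPM, ratio 0.702, 0.527 to 0.923), Cited2 (122 and 80.4 CPM, ratio 0.658, 0.451 to 0.936) and Ddit4 (76.5 and 45.6 CPM, ratio 0.596, 0.357 to 0.949). All 4 were lower in the Momordicine-I library, although after thinning to 2000 UMIs per cell the log2 ratio of Cited2 was 0.18.

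Of the companion set of 44 pathway genes, 12 of the 38 measured were past 1.5-fold higher in neutrophils than in the other immune cells in both libraries, against 15.2% of all genes, and 17 were past 1.5-fold lower, against 56.1%. Their median log2 difference was -0.08 and 0.21. Hilpda (1405 and 1387 CPM), Plin2, which coats lipid droplets (856 and 849.9 CPM), and Hmox1, the heme-degrading oxygenase (453 and 457 CPM), were among its well-expressed genes in neutrophils. Between treatments, 1 of 33 was past 1.5-fold higher and 0 lower in neutrophils, against 12% and 4.63% of all genes. In monocytes and macrophages 0 of 31 were higher and 6 lower, against 10.5% each way. In dendritic cells 4 of 29 were higher and 1 lower, against 10.1% and 7.38%. In T cells 5 of 34 were higher and 3 lower, against 9.39% and 9.29%. The counts were 3 and 2 of 26 in NK cells, against 8.52% and 9.39%, and 2 and 4 of 21 in B cells, against 12.5% and 18%. In monocytes and macrophages Pgf, a relative of Vegfa, was lower where Vegfa was higher, at 49.5 and 18.3 CPM (65 and 53 UMIs, ratio 0.370, 0.253 to 0.540). In T cells Plin2 stood at 61.8 and 107 CPM (ratio 1.74, 1.44 to 2.10), and Stc2, a secreted glycoprotein, had 5 and 36 UMIs (ratio 8.48, 3.32 to 27.7), the latter spread over 33 cells.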

How the data were processed

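CD45-sorted cells of pooled tumours were read with the 10x 3′ v3.1 kit, per the labels' extract protocol, and processed with Cell Ranger 6.0.2 against mm10, per the submitters' processing notes. The deposited matrices hold raw UMI counts per gene and barcode, made by the authors with no further normalization. Members and gene lists were chosen with earlier results of these data known, and gate thresholds were set after the marker levels had been seen.

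Barcodes with at least 200 genes and at most 10% mitochondrial UMIs were kept. Neutrophils had at least 1% of UMIs and at least 3 genes from a neutrophil list and at most 2 markers of any other class. Other classes had under 1%, at least 3 own markers, and a next class at no more than 0.75 of the leading fraction. Counts were summed by class and library and divided by total UMIs (CPM), with exact Poisson 95% intervals. Ratios have exact conditional binomial 95% intervals, which treat the UMIs of a cell as independent. A gene was measured at 20 or more UMIs over the groups compared, and 1.5-fold was the threshold for calling. Shares given for all genes were not matched to the members in level. Neutrophil states needed at least 3 mature, 3 interferon, 4 inflammatory or 1 Siglecf marker and no second state.

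Members are named in full where past 1.5-fold in neutrophils or in monocytes and macrophages, where among the 3 highest or the 6 most different in neutrophils, and as paralog pairs. Others given in full were chosen after their values were seen. Aldoa has 2 feature rows, which were summed. Eno1 had 16493 and 21425 UMIs beside 762 and 796 for its near copy Eno1b, and reads of such copies can be misassigned. A doublet caller (scanpy 1.11.5) marked 2 and 1 barcodes at its own threshold and so had not worked, and an alternative without the 91 and 153 highest-scoring barcodes was run. The calculations were tested on simulated data and used Python 3.11.15, numpy 2.4.6, scipy 1.17.1 and pandas 2.3.3. Gene positions are GENCODE vM21.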

Additional observations from a re-analysis of the deposited data

How the results depend on the processing

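No paired analysis was possible because each group is 1 library. No result rests on a test, so an alternative could only move a value or a count. Recomputed under the alternatives, medians and counts over classes, states and the ranking stayed near the reported value in 168 cases and moved in 12.

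In neutrophils the median log2 ratio of the members between treatments was -0.14 relative to all genes. The count past 1.5-fold was 2 with each cell's own CPM averaged, 0 with at least 50 UMIs required, and 2 under the gate with neutrophil markers at 2% in neutrophils and under 0.5% elsewhere, which was chosen after seeing the data. The median in dendritic cells was -0.092 under that gate. The count in NK cells was 5 with averaged cells, 1 without each gene's highest cell, 1 relative to all genes and 5 with no minimum. The count in B cells was 10 at 5% mitochondrial UMIs, 7 with cells thinned to 2000 UMIs and 8 with at least 50 UMIs. Log2 ratios turned for Slc2a3 in monocytes and macrophages (0.0053, the 2% and 0.5% gate), Epas1 in T cells (-0.075, thinned), and, in B cells, Slc2a1 (-0.36, 5% mitochondrial UMIs), Hk2 (0.061, doublets removed), Cited2 (0.18, thinned) and Vegfa (0.42, averaged cells). Beyond the settings that lower the counts themselves, the cause was not tested.

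Vegfa stayed past 1.5-fold higher under 11 of 11 alternatives in monocytes and macrophages (log2 ratio 0.80 to 1.21) and under 10 of 10 in dendritic cells (1.25 to 1.91), and Pfkp did so in T cells under 11 of 11. Pfkfb3 in dendritic cells did so under 7 of 11. Levels of the smaller classes rest on few cells, and differences between mice within a pool cannot be seen.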
